A study of Mus musculus with 14 samples.

Results

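The genes described here build the cytosolic ribosome and run it: ribosomal proteins, translation initiation factors and translation elongation factors. They were chosen by symbol alone, as mouse genes named Rpl, Rps or Rplp with a number, Eif followed by a number from 1 to 6, or Eef followed by 1 or 2, with pseudogenes left out. The table lists 143 such genes of 15119 genes in all: 80 ribosomal proteins, 52 initiation factors (with their kinases, exchange factors and inhibitors) and 11 elongation factors (with a kinase and methyltransferases). A further 8 annotated genes with fitting symbols were not analysed here.

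RNA was sequenced from GFP-positive cells of the adult mouse dentate gyrus, the hippocampal region where neurons are added throughout life, in strain B6.Cg-Tg(Nes-EGFP)1Yamm, whose GFP is driven by regulatory elements of Nestin. The untreated, dissociated cells were sorted for GFP and for dihydroethidium, whose oxidation by reactive oxygen species (ROS) makes it fluoresce, into ROS+ (5 libraries), ROS++ (5 libraries) and ROS+++ (4 libraries) classes. The labels name no animal, sex, batch or pairing, and do not say that libraries of a class came from separate animals. A p-value here thus speaks to the spread among these libraries alone, which may in part be technical. Y-linked genes were near 0 in ROS+ replicate 5, ROS++ replicate 5 and ROS+++ replicate 4, and not in the other libraries. The question taken from the series' title is how precursor cells of differing ROS content differ in gene expression, here in their translation machinery.

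As background, the small ribosomal subunit with its initiation factors binds the capped end of an mRNA through the eIF4 proteins, scans to a start codon with the initiator tRNA carried by eIF2, and is joined there by the large subunit; eEF1 then delivers aminoacyl-tRNAs and eEF2 moves the ribosome along. Messenger RNAs of ribosomal proteins and elongation factors commonly begin with a tract of pyrimidines, which puts their translation under the mTORC1 kinase, while phosphorylated eIF2 and the eIF4E-binding proteins hold initiation back. In adult neurogenesis, protein synthesis is known to be low in quiescent stem cells and to rise as they become active and commit.

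Reads on listed genes numbered 20832009 to 25313902 for a ROS+ library, 18325361 to 23454022 for ROS++ and 12704227 to 20998589 for ROS+++. The GFP-positive classes differed widely in markers of other cells. The summed level of 15 neuronal-lineage markers in CPM (reads scaled to a common library total) ranged over 12600 to 18200 in the ROS+ class, 1030 to 2550 in the ROS++ class and 40.1 to 226 in the ROS+++ class. The sum of 15 mural-cell markers was 203 to 738 CPM, 8920 to 25800 CPM and 58100 to 67100 CPM in the same order, and that of 15 microglial and macrophage markers was 4.79 to 18 CPM, 1070 to 2610 CPM and 791 to 3240 CPM. The sum of 15 radial glia-like stem cell markers was 1360 to 2050, 7540 to 10300 and 7260 to 10700 CPM, and that of 18 immediate early and dissociation-stress genes was 659 to 977, 1730 to 4020 and 11700 to 16200 CPM. Endothelial markers (10) summed to 103 to 298, 179 to 472 and 1090 to 1420 CPM, and those of the oligodendrocyte lineage (10) to 2960 to 6660, 3810 to 11000 and 480 to 728 CPM. Of the stem cell markers, 12 were called higher in ROS+++ than in ROS+ and 2, Sox2 and Fabp7, lower, while all 15 mural markers were called higher and all 15 neuronal markers lower. No marker in these lists was at 0 in every library of a class. The part of these differences in the results below was not tested, and in bulk samples fewer cells of a type and less RNA per cell cannot be told apart.

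To show what the letters around the starts of these genes look like, 120-base windows (90 before the annotated start and 30 after it) are given for members on which the results turn, from RefSeq promoter sequences on build GRCm38.p6, 5′ to 3′ on the gene's strand. Capitals mark the letters CTNTTCC read on the gene's own strand, or CCGGAAG, the core bound by ETS-family factors such as GABPA, on either strand. They are marked wherever they fall, also before the start or, as in Eef1a1, across it. A marked stretch is thus not shown to be the beginning of the mRNA.
Rpl22 (chr4:152325636-152325755, plus strand): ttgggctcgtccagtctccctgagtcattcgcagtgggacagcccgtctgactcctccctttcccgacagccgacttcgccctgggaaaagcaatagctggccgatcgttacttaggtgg
Rpl22l1 (chr3:28805418-28805537, plus strand): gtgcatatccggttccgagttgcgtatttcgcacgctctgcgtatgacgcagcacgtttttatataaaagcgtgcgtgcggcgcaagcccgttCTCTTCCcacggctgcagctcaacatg
Rps7 (chr12:28635924-28636043, minus strand): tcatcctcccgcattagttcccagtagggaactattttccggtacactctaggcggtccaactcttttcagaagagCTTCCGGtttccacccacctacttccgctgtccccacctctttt
Eef1a1 (chr9:78481695-78481814, minus strand): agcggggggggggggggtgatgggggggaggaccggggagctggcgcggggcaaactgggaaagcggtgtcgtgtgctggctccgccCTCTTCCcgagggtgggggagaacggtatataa
Eef2 (chr10:81176541-81176660, plus strand): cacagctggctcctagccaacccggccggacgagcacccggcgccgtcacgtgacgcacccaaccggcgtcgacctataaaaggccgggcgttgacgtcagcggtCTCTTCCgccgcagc
The windows of Rps26, Eif4b and Eif1, not printed here, held no match to mark in the same 120 bases. Of the 143 members, 111 matched a window in this set. Over the full 300-base windows (250 before the start and 50 after), CCGGAAG on either strand was found in 38.3% of 60 ribosomal protein windows, 32.6% of 43 initiation factor windows and 12.5% of 8 elongation factor windows, against 17.2% of the 10876 windows of genes tested. CTNTTCC, here also counted on either strand, was found in 38.3%, 25.6% and 25% of the same windows, against 24.8% for genes tested. These shares therefore include matches on the strand opposite the gene. Where a gene has several listed starts, the window may have been picked by unlike rules for members and for all genes tested. The shares of members and of all genes are thus not strictly comparable for either motif, and no difference is read from them. A match describes letters only, and the start used can lie away from the start used in these cells.

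Transcripts of the translation machinery took up less of the library as ROS content rose. All members together held 4.18% ± 0.169 of reads (SD, n = 5) in ROS+, 3.44% ± 0.110 (n = 5) in ROS++ and 2.63% ± 0.117 (n = 4) in ROS+++. Ribosomal proteins accounted for 2.66% ± 0.127, 2.27% ± 0.121 and 1.63% ± 0.1 of reads, initiation factors for 1.02% ± 0.0381, 0.817% ± 0.0186 and 0.747% ± 0.0131, and elongation factors for 0.505% ± 0.0248, 0.352% ± 0.0197 and 0.254% ± 0.0145. For each of the 3 gene groups, the share was lower in every ROS+++ library than in every ROS++ library and lower in every ROS++ library than in every ROS+ library.

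Differences between classes were tested gene by gene with limma on log2(CPM + 1), with CPM taken from library totals, over all 15102 genes that passed a filter on low values, which all 143 members passed. A gene was called when its Benjamini-Hochberg adjusted p was under 0.05, and changes are differences of log2(CPM + 1), which understate the changes of genes with few reads. Any difference among the 3 classes was called for 71 of 80 ribosomal proteins (88.8%), 30 of 52 initiation factors (57.7%) and 10 of 11 elongation factors (90.9%), where 61.5% of all genes tested were called. The 3 comparisons share their libraries, so their counts are not independent of each other.

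Between ROS+ and ROS+++, 70 of 80 ribosomal proteins were lower in ROS+++ and 1 was higher, where 40.0% of all genes tested were called lower and 19.2% higher. The median change of ribosomal proteins was -0.66, beside -0.44 over all genes. Of 52 initiation factors, 25 were lower and 5 higher, with a median of -0.35, and of 11 elongation factors 9 were lower and 1 higher, with a median of -0.99. The initiation factors' share of lower calls was thus near that of all genes, and that of ribosomal proteins and elongation factors was above it. In 69 ribosomal proteins every ROS+++ library lay below every ROS+ library, an arrangement seen in 33.2% of all genes tested. The changes of ribosomal proteins lay close together, with an SD of 0.36 among genes, whereas those of initiation factors spread from -1.65 to 2.23 with an SD of 0.77. Both groups varied less than all genes tested, which had an SD of 1.79 and a range of -9.09 to 10.07. Most falls of ribosomal proteins were modest. Of the 80, 14 were called lower by more than 2-fold, where 4234 of all 15102 genes tested were.

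ROS++ against ROS+ showed smaller differences. There, 24 ribosomal proteins were lower and 1 higher, 12 initiation factors were lower and 2 higher, and 4 elongation factors were lower and 2 higher, where 13.2% of all genes were called lower and 16.4% higher. Medians were -0.18, -0.14 and -0.26, beside -0.03 over all genes. Set against ROS++, in ROS+++ 64 ribosomal proteins, 15 initiation factors and 8 elongation factors were lower and 1, 4 and 0 were higher, where 29.2% of all genes were called lower and 9.89% higher. The medians were -0.51, -0.28 and -0.46, beside -0.34 over all genes. The order ROS+ above ROS++ above ROS+++ held for the class means of 64 of 80 ribosomal proteins, 25 of 52 initiation factors and 8 of 11 elongation factors.

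**Figure D1:**
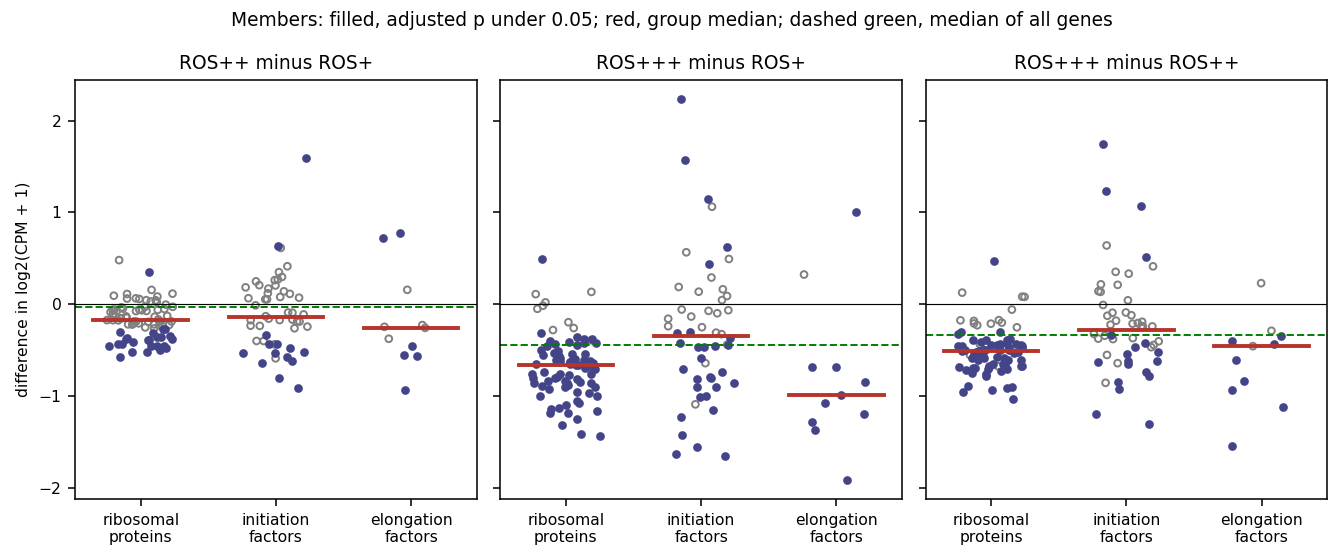
Change of each of the 143 genes between classes, as the difference of log2(CPM + 1) on the y axis, in columns for ribosomal proteins, initiation factors and elongation factors and a panel for each comparison; filled points have an adjusted p under 0.05 and open points do not, red bars are group medians and the dashed green line is the median of all genes tested. In ROS+++ against ROS+ the ribosomal proteins form a compact column around -0.66, while initiation factors reach from -1.65 to 2.23.

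How far the groups moved depended on the scaling of the libraries. Library totals are one reference; the trimmed mean of M-values (TMM), relative log expression and the upper quartile are others that set a typical gene, rather than the total, level between libraries. From ROS+ to ROS+++ these moved the median of all genes from -0.44 with totals to -0.17 with the upper quartile, -0.09 with TMM and -0.04 with relative log expression. The median of ribosomal proteins became -0.37, -0.28 and -0.22, with 52, 43 and 34 called lower and 4, 5 and 5 called higher, where 30.1%, 27.4% and 25.9% of all genes were called lower and 23.6%, 25.3% and 26.6% higher. The median of elongation factors stayed lower at -0.70, -0.61 and -0.55. For initiation factors it was -0.05, 0.03 and 0.09, with 15, 14 and 12 called lower and 9, 11 and 11 higher, so the direction of the initiation factor median was not the same under every scaling.

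Relative to all genes, the group medians moved less between these scalings. This follows from the arithmetic, since each scaling divides a library by 1 factor and so shifts nearly all genes alike. It is therefore no separate support for the differences. The ribosomal protein median minus the all-gene median was -0.22 with totals, -0.20 with the upper quartile, -0.19 with TMM and -0.18 with relative log expression in ROS+++ against ROS+. For elongation factors it was -0.56, -0.53, -0.52 and -0.51, and for initiation factors 0.09, 0.12, 0.12 and 0.13. With totals and a pseudocount of 5 CPM in place of 1, the ribosomal protein difference was -0.35 and that of initiation factors -0.03, so these differences depended on the pseudocount. Under all 4 scalings alike, 34 ribosomal proteins, 12 initiation factors and 7 elongation factors were called lower in ROS+++ than in ROS+, where 25.9% of 15082 genes were, and 1, 5 and 1 were called higher, where 19.2% of genes were. The lower counts equal those with relative log expression alone, and the higher counts equal those with totals alone. A call under all 4 scalings is thus a call under the strictest of them, not 4 independent tests. Between ROS++ and ROS+++ the scalings mattered more: ribosomal proteins called lower in ROS+++ numbered 64 with totals, 27 with the upper quartile, 21 with TMM and 9 with relative log expression, where 29.2%, 20.1%, 18.8% and 17.1% of all genes were. Those called higher numbered 1, 3, 4 and 4, where 9.89%, 14.8%, 16.3% and 18.7% of all genes were. For ROS++ against ROS+ the counts of lower ribosomal proteins were 24, 23, 18 and 21, where 13.2%, 12.5%, 11.7% and 12.3% of all genes were.

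**Figure D2:**
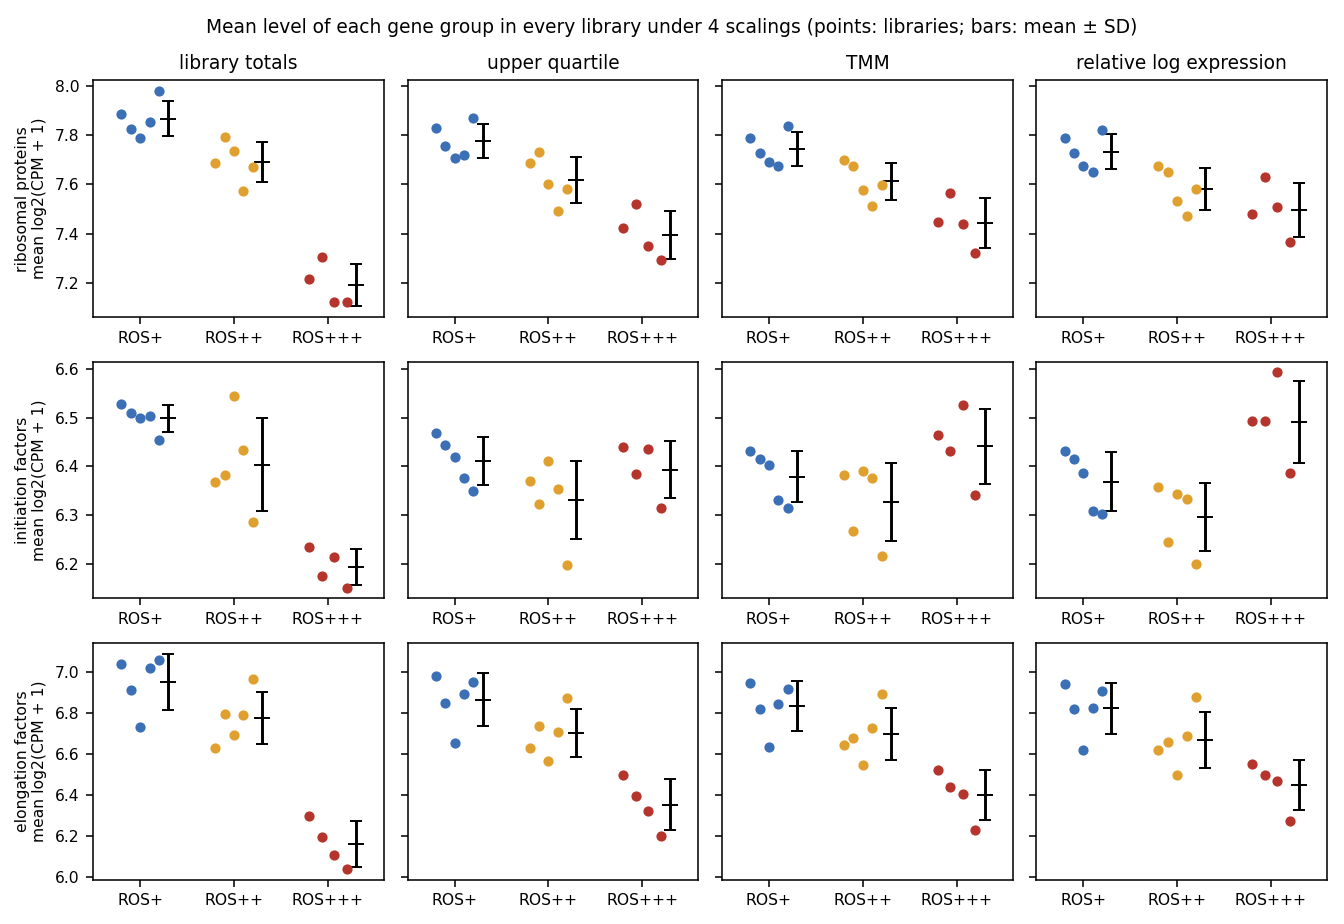
Mean log2(CPM + 1) of the ribosomal proteins, initiation factors and elongation factors (rows) in each library of the 3 classes (points) with the class mean ± SD (bars), under 4 scalings (columns); y axes are shared within a row and do not start at 0. Ribosomal and elongation factor means are lowest in ROS+++ in all 4 columns, while the initiation factor mean of ROS+++ lies below that of ROS+ with totals (6.19 against 6.50) and above it with relative log expression (6.49 against 6.37).

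A measure that any scaling leaves nearly untouched is the balance of the groups within a library. The initiation factor mean includes Eif2s3y, a Y-linked gene. It had 0.375, 0.218 and 0.315 CPM in ROS+ replicate 5, ROS++ replicate 5 and ROS+++ replicate 4, and 111 to 419 CPM in the other libraries. Balances against initiation factors are thus raised in the libraries that nearly lack it, by an amount not worked out here. The mean log2 level of ribosomal proteins exceeded that of initiation factors by 1.36, 1.32, 1.29, 1.35 and 1.52 in the 5 ROS+ libraries, by 1.32, 1.41, 1.19, 1.14 and 1.39 in the 5 ROS++ libraries, and by 0.98, 1.13, 0.91 and 0.97 in the 4 ROS+++ libraries. All ROS+++ libraries were below all others, the nearest values being 1.13 and 1.14, and ROS+ and ROS++ overlapped. Class means were 1.37 ± 0.0919, 1.29 ± 0.119 and 1.00 ± 0.0926 with totals and 1.36, 1.29 and 1.00 with TMM. Elongation factors minus initiation factors gave 0.45 ± 0.144 in ROS+, 0.37 ± 0.199 in ROS++ and -0.03 ± 0.0873 in ROS+++, again with every ROS+++ library below all others. Ribosomal proteins minus elongation factors did not separate the classes, at 0.92 ± 0.0904, 0.92 ± 0.16 and 1.03 ± 0.0856. Within the ribosome, large-subunit minus small-subunit proteins gave -0.34 ± 0.0257, -0.33 ± 0.0238 and -0.30 ± 0.0413, with overlapping libraries.

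**Figure D3:**
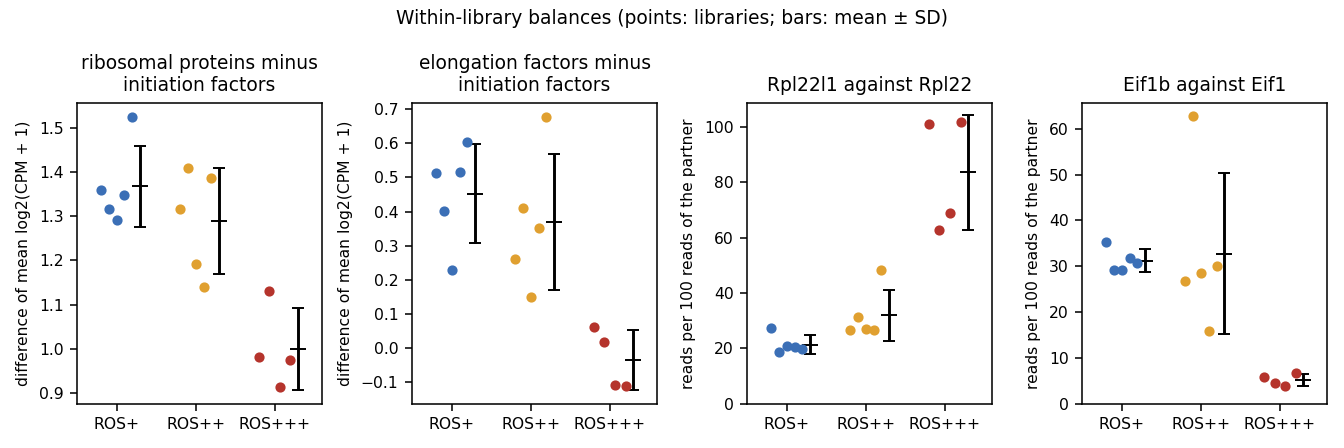
Balances within each library (points) with the class mean ± SD (bars): ribosomal proteins minus initiation factors and elongation factors minus initiation factors, as differences of mean log2(CPM + 1), and the reads of Rpl22l1 per 100 reads of Rpl22 and of Eif1b per 100 reads of Eif1, as ratios. The 4 ROS+++ libraries do not overlap the other 10 in any panel. In the first panel the gap is narrow, with nearest values of 1.13 (ROS+++ replicate 2) and 1.14 (ROS++ replicate 4).

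Ribosomal proteins also moved together from library to library. The correlation of a ribosomal protein with the mean of the other ribosomal proteins over the 14 libraries had a median of 0.94 and passed 0.8 in 69 of 80 genes, whereas the median was 0.80 for elongation factors and 0.37 for initiation factors. The lowest values among all members were -0.85 for Eif4e3 and -0.74 for Rpl22l1. These are descriptions over libraries that share class and depth. Of the other genes in the table, the 5 most like the ribosomal protein mean were 1500004A13Rik (0.983), Rpsa (0.982), Ctxn1 (0.980), Hmgb3 (0.977) and Draxin (0.977), of which Rpsa encodes a protein of the small subunit that the symbol rule does not cover.

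Among proteins of the 40S subunit, 26 of 30 were lower in ROS+++ than in ROS+ with totals and 13 under all 4 scalings, where 40.0% and 25.9% of all genes were. Rps26, which lies at the mRNA exit channel, had 340, 336, 328, 333 and 376 CPM in the ROS+ libraries, 268, 276, 268, 220 and 225 in ROS++ and 157, 131, 116 and 113 CPM in ROS+++. No class overlapped another, with ROS+ highest and ROS+++ lowest. It fell by 1.41 ± 0.12 (SE; limma, adjusted p = 1.36e-08) from ROS+ to ROS+++.

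Rps7, an early-assembling small-subunit protein known also as a binder of Mdm2, had 323, 343, 317, 316 and 355 CPM in ROS+, 233, 253, 225, 195 and 205 in ROS++ and 152, 142, 124 and 135 CPM in ROS+++. It had the largest fall of any ribosomal protein from ROS+ to ROS++, -0.57 ± 0.10 (SE; limma, adjusted p = 0.000247), and the classes did not overlap. Rps3, which lines the mRNA entry channel, fell from 1171 ± 71.6 to 827 ± 34.8 and 586 ± 61.2 CPM. Rps26, Rps7 and Rps3 were each called lower in ROS+++ than in ROS+ under each of the 4 scalings. Rps27 did not follow them: its means were 374 ± 34.6, 332 ± 43.4 and 361 ± 30.02 CPM, its change from ROS+ to ROS+++ was -0.05 with totals (limma, adjusted p = 0.711), and with TMM and relative log expression it was called higher, by 0.33 and 0.39.

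On the 60S subunit, 40 of 43 proteins outside the stalk and the paralogues were lower in ROS+++ than in ROS+ with totals, and 20 were lower under all 4 scalings; of all genes, 40.0% and 25.9% were. Rpl22 (ENSMUSG00000028936, GRCm38 chr4:152325742-152334071), an RNA-binding protein of the large subunit, had 205, 237, 226, 220 and 248 CPM in ROS+, 173, 174, 167, 155 and 123 in ROS++ and 76.4, 102, 93.9 and 65.4 CPM in ROS+++. The classes did not overlap. Rpl22 fell by 1.44 ± 0.14 (SE; limma, adjusted p = 1.42e-07) from ROS+ to ROS+++, the largest fall of any ribosomal protein.

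Its paralogue Rpl22l1 (ENSMUSG00000039221, chr3:28805436-28807424), whose product can take the place of Rpl22 in the ribosome and whose transcript Rpl22 protein is known to repress, had 55.9, 44.1, 46.8, 45.2 and 48.8 CPM in ROS+, 46.2, 54.1, 45.0, 41.2 and 59.4 in ROS++ and 77.1, 64.0, 64.6 and 66.5 CPM in ROS+++. All ROS+++ libraries were above all others, while ROS+ and ROS++ overlapped. Rpl22l1 was the only ribosomal protein called higher in ROS+++ than in ROS+ with totals, by 0.49 ± 0.16 (SE; limma, adjusted p = 0.0132), and it was called higher under the other 3 scalings too. Reads of Rpl22l1 per 100 reads of Rpl22, which need no scaling, ranged over 18.6 to 27.2 (ROS+), 26.6 to 48.2 (ROS++) and 62.8 to 102 (ROS+++), the last class lying apart from both others. Against ROS++, the rise of Rpl22l1 was 0.47 (limma, adjusted p = 0.0263), and that call was lost without ROS+++ replicate 1, ROS++ replicate 3 or ROS++ replicate 4.

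Rpl5, which carries the 5S RNA into the ribosome, fell by 1.32 ± 0.14 and Rpl15 by 1.19 ± 0.10 (SE; limma, adjusted p = 2.34e-07 and 2.2e-08) from ROS+ to ROS+++. Per kilobase of exon, Rpl4 and Rpl36 had the highest levels of the ribosomal proteins in ROS+, at 870 ± 31.2 and 732 ± 59.99 CPM per kilobase, and in ROS+++ Rpl36 stood at 556 ± 59.5 and Rpl4 at 481 ± 22.0. Between ROS++ and ROS+++, the largest falls were those of Rpl13 (-1.04), Rps26 (-0.96) and Rpl12 (-0.93), of which Rps26 and Rpl12 were called under all 4 scalings. Rpl12 had 127 ± 8.51 CPM in ROS+, 131 ± 10.1 in ROS++ and 68.5 ± 11.3 in ROS+++, so its lower level was seen in the last class.

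Rpl41, the smallest protein of the ribosome, and Rpl10, which joins the subunit late, did not pass the test with totals. Rpl41 had 519, 472, 464, 462 and 482 CPM in ROS+, 512, 532, 522, 423 and 487 in ROS++ and 508, 490, 437 and 462 CPM in ROS+++. The classes overlapped throughout, and its change from ROS+ to ROS+++ was -0.02 with totals (limma, adjusted p = 0.881) but 0.28, 0.36 and 0.42, all called, with the upper quartile, TMM and relative log expression. Rpl10 had 267 ± 14.2, 256 ± 22.1 and 271 ± 17.5 CPM, and it too was called higher in ROS+++ than in ROS+ under those 3 scalings, by 0.32, 0.40 and 0.46. Rpl24 was hardly counted at all, at 1.76 ± 0.715 CPM in ROS+; many ribosomal protein genes have near-identical pseudogene copies that can split or lose reads, which makes absolute levels of single genes uncertain.

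The 3 stalk proteins, which recruit the elongation factors, were all called lower in ROS+++ than in ROS+ with totals. Rplp0, the base of the stalk, changed by -1.07 ± 0.17, Rplp1 by -0.64 ± 0.12 and Rplp2 by -0.36 ± 0.10 (SE; limma, adjusted p = 4.67e-05, 0.000218 and 0.00398). Of the 3, Rplp0 was called under all 4 scalings. The change of Rplp2 was 0.02 with TMM and 0.08 with relative log expression, and neither was called. Rps27l, a paralogue of Rps27 known as a p53 target, was the only ribosomal protein called higher in ROS++ than in ROS+, by 0.35 ± 0.12 (limma, adjusted p = 0.0355), with 107 to 119 CPM in the ROS+ class and 112 to 174 CPM in the ROS++ class; the call was lost in 7 of the 14 fits that left out a library (without ROS+ replicate 2, 3, 4 or 5, or without ROS++ replicate 1, 2 or 4).

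Among the elongation factors, Eef1a1 (ENSMUSG00000037742, chr9:78478449-78489151), the GTPase that brings aminoacyl-tRNAs to the ribosome, had the highest level per kilobase of all members in every class, at 1160 ± 62.9, 787 ± 61.9 and 583 ± 31.1 CPM per kilobase, although in ROS+++ Eif1 (564 ± 94.8) and Rpl36 lay within the spread of it. Its libraries had 2710, 2940, 2870, 2810 and 3130 CPM in ROS+, 1930, 2120, 1720, 2050 and 1990 in ROS++ and 1440, 1570, 1410 and 1400 CPM in ROS+++. The classes did not overlap. It fell by 0.56 ± 0.07 from ROS+ to ROS++ and by 0.99 ± 0.07 from ROS+ to ROS+++ (SE; limma, adjusted p = 6e-06 and 2.99e-09).

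Eef2 (ENSMUSG00000034994, chr10:81176631-81182498), the translocase, had 971, 1000, 1210, 961 and 1240 CPM in ROS+, 606, 565, 568, 547 and 516 in ROS++ and 495, 441, 480 and 354 CPM in ROS+++. Most of its difference lay between ROS+ and ROS++, where it fell by 0.93 ± 0.10 (SE; limma, adjusted p = 1.95e-06), the largest fall of any member in that comparison. From ROS++ to ROS+++ it changed by -0.35 ± 0.11 (adjusted p = 0.0168) with totals, a call lost without ROS+++ replicate 4, and by 0.07 with relative log expression, which was not called. Eef2k, the kinase that inhibits eEF2, had 25.6 to 42.5 CPM in ROS+ and 16 to 28.6 CPM in ROS+++, a change of -0.68 with totals (limma, adjusted p = 0.0312). Of the 4 scalings it was called with totals only, its change being -0.40 with the upper quartile, -0.32 with TMM and -0.26 with relative log expression. With totals the call was lost in 5 of the 14 fits that left out a library (ROS+ replicate 4 or 5, ROS+++ replicate 1, 3 or 4). Eef2kmt, a methyltransferase of eEF2, was higher in ROS+++ than in ROS+ by 1.00 ± 0.27 (adjusted p = 0.00396), with 11.1 to 20.9 CPM in ROS+ and 30.2 to 38.3 CPM in ROS+++.

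The subunits of the exchange complex that recharges eEF1A went different ways. Eef1b2 had 263 ± 9.73, 220 ± 12.9 and 116 ± 23.5 CPM in the 3 classes and Eef1g had 313 ± 22.1, 228 ± 23.8 and 149 ± 17.1 CPM, and both were called lower in ROS+++ than in ROS+ under all 4 scalings. Eef1d, their partner, had 165, 145, 105, 159 and 131 CPM in ROS+, 221, 271, 235, 249 and 185 in ROS++ and 158, 176, 176 and 189 CPM in ROS+++. All ROS++ libraries were above all ROS+ libraries, a rise of 0.72 ± 0.13 (SE; limma, adjusted p = 0.000452), and ROS+++ overlapped both. From ROS+ to ROS+++ Eef1d changed by 0.32 with totals (adjusted p = 0.0562) and by 0.62, 0.70 and 0.76 with the upper quartile, TMM and relative log expression, all called. Eef1e1, which despite its symbol encodes a scaffold component of the aminoacyl-tRNA synthetase complex, showed the largest fall of all members from ROS+ to ROS+++, from 109 ± 14.9 to 28.4 ± 5.98 CPM (-1.92 ± 0.18, adjusted p = 7.2e-08). Eef1a2, the form of neurons and muscle, was at 2.77 to 6.29 CPM in ROS+ and 0.476 to 1.81 CPM in ROS+++, under 1 read in 100 of the Eef1a1 level in every library.

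The eIF4 proteins, which bind the cap and unwind the leader, split. Eif4g2, a scaffold for cap-independent initiation also known as DAP5, had 1690, 1820, 1980, 1340 and 1780 CPM in ROS+, 1000, 932, 893, 881 and 846 in ROS++ and 662, 641, 679 and 563 CPM in ROS+++. The classes did not overlap, and it fell by 0.91 ± 0.10 and 1.43 ± 0.10 from ROS+ to ROS++ and to ROS+++ (SE; limma, adjusted p = 1.05e-06 and 2e-09). Eif4b, which stimulates the eIF4A helicase, fell from 193 ± 24.5 to 110 ± 14.1 and 61.9 ± 15.7 CPM, by 1.65 in all (adjusted p = 1.74e-07).

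Eif4e, the cap-binding protein itself, had 398, 374, 343, 303 and 354 CPM in ROS+, 245, 266, 216, 285 and 225 in ROS++ and 196, 215, 193 and 175 CPM in ROS+++, without overlap between classes. Its change from ROS+ to ROS+++ was -0.86 ± 0.11 (SE; limma, adjusted p = 4.03e-06). Its relative Eif4e3 (ENSMUSG00000093661, chr6:99625135-99666771), known as a weaker cap binder that competes with eIF4E, had 23.3, 19.8, 19.2, 18.7 and 15.8 CPM in ROS+, 12.3, 17.7, 13.2, 35.3 and 13.8 in ROS++ and 79.7, 52.0, 46.0 and 64.4 CPM in ROS+++. All ROS+++ libraries were above all others, and 1 ROS++ library stood above the rest of its class. Eif4e3 rose by 1.58 ± 0.29 over ROS+ and by 1.74 ± 0.29 over ROS++ (SE; limma, adjusted p = 0.000135 and 0.000116), under all 4 scalings. Reads of Eif4e3 per 100 reads of Eif4e were 4.45 to 6.19, 5.01 to 12.4 and 23.8 to 40.8 in the 3 classes.

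Eif4g3, a scaffold of the cap complex, had 126 ± 16.0, 147 ± 27.9 and 195 ± 35.8 CPM and was called higher in ROS+++ than in ROS+ by 0.62 ± 0.16 (limma, adjusted p = 0.00349), whereas the main scaffold Eif4g1 had 35.6 ± 11.7, 30.6 ± 9.04 and 38.9 ± 8.45 CPM and did not pass the test with totals (adjusted p = 0.624). The helicases Eif4a1 and Eif4a2 were called lower in ROS+++ than in ROS+ with totals, by -0.43 and -0.32 (adjusted p = 0.00501 and 0.0091). With relative log expression their changes were 0.01 and 0.12, neither called.

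Of the 3 proteins that bind eIF4E and block the scaffold, or carry it to the nucleus, 2 were higher. Eif4ebp1 (ENSMUSG00000031490, chr8:27260329-27276674), an mTORC1 target that frees eIF4E when phosphorylated, had 1.38, 1.06, 1.20, 0.426 and 1.78 CPM in ROS+, 5.76, 1.77, 7.97, 2.25 and 18.5 in ROS++ and 8.21, 10.2, 8.57 and 8.97 CPM in ROS+++. Every ROS+++ library was above every ROS+ library, and the ROS++ libraries ranged from the upper end of ROS+ to above ROS+++. Its rise was 1.59 ± 0.45 in ROS++ and 2.23 ± 0.48 in ROS+++ over ROS+ (SE; limma, adjusted p = 0.0123 and 0.000654), the largest of any member in both comparisons, at few reads.

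Eif4ebp2, its close relative, had 3.12, 3.84, 2.41, 2.05 and 3.99 CPM in ROS+, 2.67, 2.36, 7.21, 2.30 and 2.95 in ROS++ and 7.78, 6.82, 4.48 and 15.2 CPM in ROS+++, a rise of 1.14 ± 0.39 over ROS+ (SE; limma, adjusted p = 0.0185). Without ROS+++ replicate 4 the rise was 0.85 and the adjusted p 0.077. Eif4enif1, the transporter of eIF4E, went the other way, from 91.1 ± 7.43 CPM in ROS+ to 45.1 ± 9.36 CPM in ROS+++ (-1.02, adjusted p = 1.88e-05).

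For start codon selection, Eif1 and Eif1b encode near-identical proteins that keep scanning ribosomes from stopping early. Eif1 (ENSMUSG00000035530, chr11:100319885-100322096) had 522, 417, 589, 610 and 701 CPM in ROS+, 640, 130, 648, 751 and 740 in ROS++ and 886, 1280, 1310 and 1260 CPM in ROS+++. All ROS+++ libraries were above all others, and ROS++ replicate 2 was far below its class. The change from ROS+ to ROS+++ was 1.06 ± 0.43 and did not pass with totals (SE; limma, adjusted p = 0.0511). It was called higher with the upper quartile (1.36, adjusted p = 0.0164), TMM (1.44, adjusted p = 0.0138) and relative log expression (adjusted p = 0.0104), and without ROS++ replicate 2 it was the same 1.06 with an SE of 0.14 and an adjusted p of 7.27e-06. Against ROS++ the rise was 1.23 (adjusted p = 0.039), and 0.75 without that library (adjusted p = 0.000889); the call was lost without ROS+ replicate 3 or 4 and without ROS+++ replicate 2, 3 or 4.

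Eif1b (ENSMUSG00000006941, chr9:120492232-120495330) had 184, 121, 171, 194 and 215 CPM in ROS+, 171, 81.5, 185, 118 and 223 in ROS++ and 50.9, 56.7, 49.2 and 83.6 CPM in ROS+++. It fell by 1.55 ± 0.25 from ROS+ to ROS+++ (SE; limma, adjusted p = 4.05e-05), and ROS++ overlapped both classes. Reads of Eif1b per 100 reads of Eif1 ranged over 29.1 to 35.2 (ROS+), 15.8 to 62.7 (ROS++) and 3.76 to 6.65 (ROS+++). Eif1a, of the neighbouring eIF1A family, was lower in ROS++ than in ROS+, at 85.0 ± 17.2 against 131 ± 9.22 CPM (-0.64).

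The initiator tRNA is carried by eIF2, whose alpha subunit is the switch of the integrated stress response, a programme that cuts bulk initiation. Of 6 genes in this role, 5 were called lower in ROS+++ than in ROS+ with totals and none higher, where 40.0% of all genes were called lower, and 3 (Eif2s1, Eif2d and Eif2s3x) were called lower under all 4 scalings, where 25.9% of all genes were. Eif2s1, the alpha subunit, had 192 ± 26.7, 170 ± 21.9 and 110 ± 12.7 CPM in the 3 classes, and Eif2d, which can deliver tRNAs without eIF2, had 99.6 ± 7.85, 73.2 ± 3.57 and 31.9 ± 7.67 CPM (-1.64 from ROS+ to ROS+++, limma, adjusted p = 1.18e-07). None of the 4 kinases of eIF2 passed the test with totals in any comparison. Eif2ak1 had 17.6 to 30.2 CPM in ROS+ and 5.05 to 23.2 in ROS+++, Eif2ak2 (PKR) 3.61 to 12.1 and 5.64 to 19, Eif2ak3 (PERK) 12.1 to 18.9 and 5.71 to 22, and Eif2ak4 (GCN2) 10.3 to 23.1 and 13.6 to 18.3 CPM, with overlapping libraries for each. Of the 5 subunits of eIF2B, which recharges eIF2, Eif2b3 was called higher in ROS+++ than in ROS+ (0.44, adjusted p = 0.0316) and Eif2b1 was called lower (-0.47, adjusted p = 0.0228). With TMM the change of Eif2b1 was -0.09 (adjusted p = 0.667) and not called, and the call of Eif2b3 was lost without ROS+ replicate 3 or 5 and without ROS+++ replicate 1, 3 or 4.

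The gamma subunit of eIF2 is made from an X-linked and a Y-linked gene, which share much of their sequence, so that reads could be split between them. Eif2s3y (ENSMUSG00000069049, chrY:1010543-1028847) had 244, 419, 315, 258 and 0.375 CPM in ROS+, 242, 340, 238, 213 and 0.218 in ROS++ and 221, 166, 111 and 0.315 CPM in ROS+++. It was thus near 0, at 8, 4 and 4 reads, in ROS+ replicate 5, ROS++ replicate 5 and ROS+++ replicate 4, and high in the other 11 libraries. Those 3 libraries have consecutive library numbers in the labels. Ddx3y, Kdm5d and Uty, other Y-linked genes, were low in the same 3. Without them, a setting chosen after seeing the data, the change of Eif2s3y from ROS+ to ROS+++ was -0.91 ± 0.23 (limma, adjusted p = 0.00414). With them the change was -1.09 ± 2.30 (adjusted p = 0.705). With neighbouring library numbers grouped into sets and entered as a block, it was -0.75 ± 0.18 (limma, adjusted p = 0.0026). The labels do not say that libraries of such a set share an animal. The X-linked Eif2s3x had 26.2 ± 5.87, 17.3 ± 5.35 and 10.6 ± 2.57 CPM and was called lower in ROS+++ than in ROS+ (-1.23, adjusted p = 0.00111).

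Of the 13 genes of eIF3, the scaffold that holds the small subunit and the factors together, 9 were called lower in ROS+++ than in ROS+ with totals and none higher, where 40.0% of all genes were called lower. Under all 4 scalings 4 of the 13 were called lower, where 25.9% of all genes were. Eif3e fell from 385 ± 22.6 to 267 ± 33.4 and 173 ± 19.5 CPM, Eif3h from 358 ± 62.1 to 232 ± 36.7 and 178 ± 27.6 CPM, and Eif3l from 352 ± 33.8 to 262 ± 43.4 and 191 ± 34.4 CPM. These 3 were called lower in ROS++ and in ROS+++ than in ROS+ under all 4 scalings, although the call of Eif3l in ROS++ was lost without ROS++ replicate 1 or ROS+ replicate 2. Eif3b, a core subunit, was higher in ROS++ than in ROS+ by 0.64 ± 0.22 (SE; limma, adjusted p = 0.0346), at 49.3 ± 6.78 against 31.7 ± 7.15 CPM, and stood at 29.9 ± 8.38 CPM in ROS+++; the rise was no longer called without ROS+ replicate 3, 4 or 5 or without ROS++ replicate 1, 3 or 4. Eif5a, the hypusine-carrying factor that helps ribosomes past stalling sequences, had 282 ± 55.3, 240 ± 51.3 and 222 ± 30.2 CPM and was not called in any comparison with totals; from ROS+ to ROS+++ it was called lower without ROS+ replicate 2 (-0.46, adjusted p = 0.026).

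**Figure D4:**
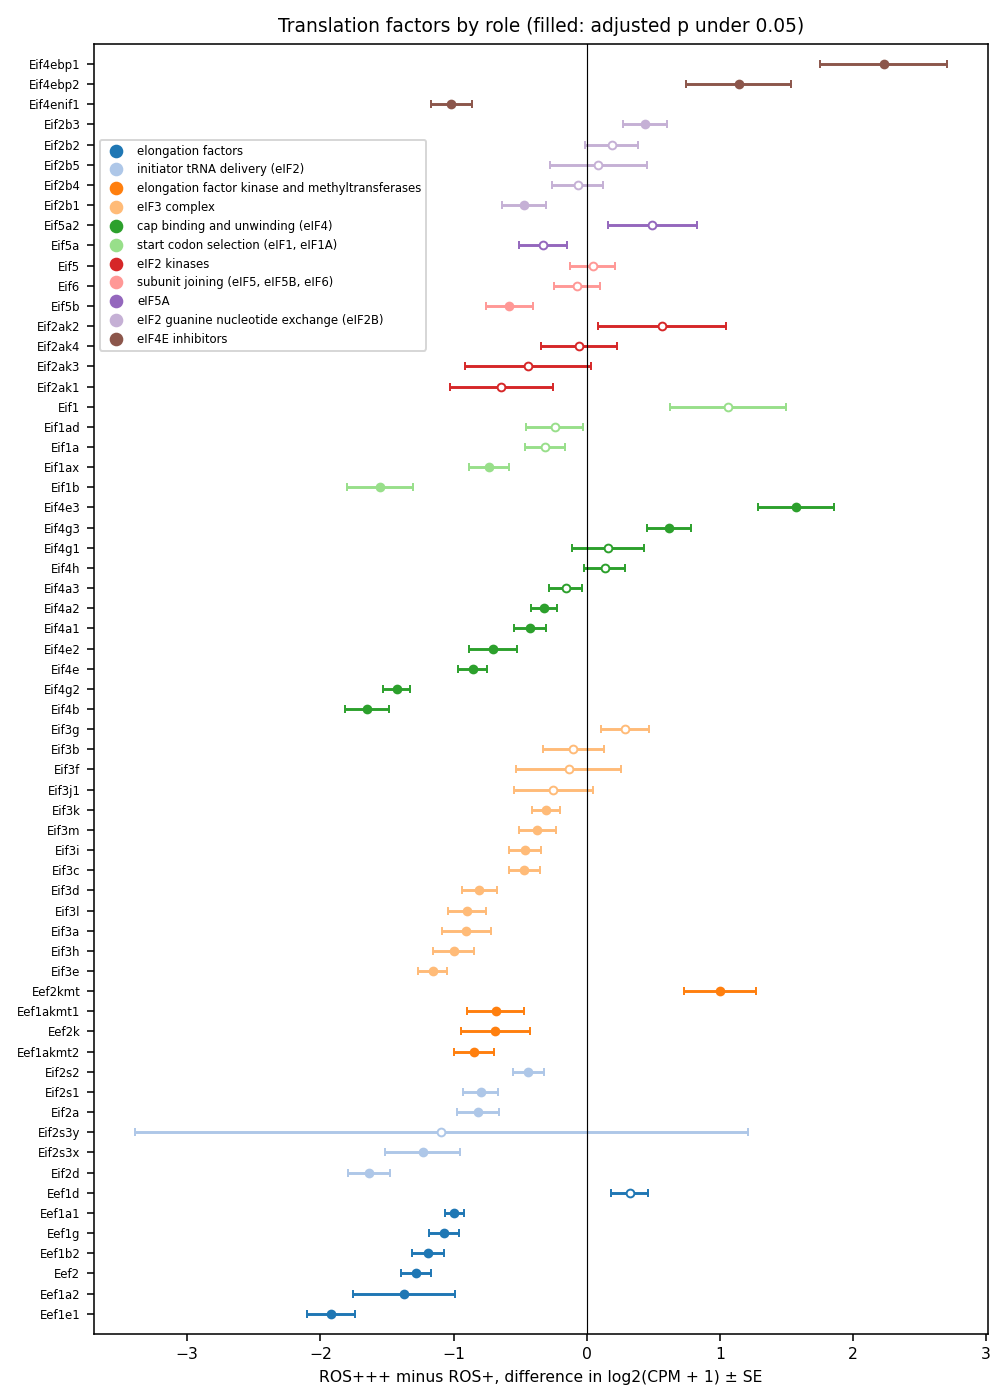
Change of each of the 63 initiation and elongation factor genes from ROS+ to ROS+++, as the difference of log2(CPM + 1) ± SE on the x axis with library totals, coloured and ordered by role; filled points have an adjusted p under 0.05. Eif4ebp1, Eif4e3 and Eif4ebp2 lie farthest to the right among filled points, and Eef1e1, Eif4b and Eif2d farthest to the left; the wide bar is Eif2s3y.

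**Figure D5:**
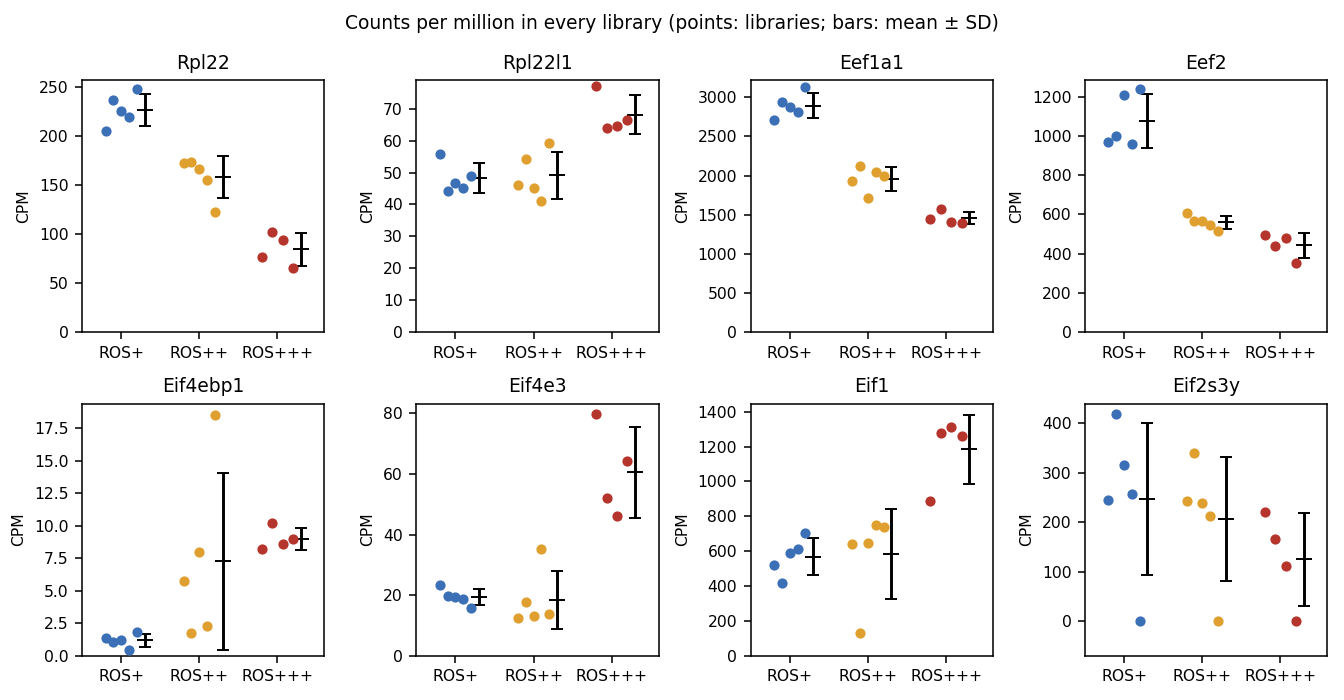
CPM of 8 members in each library (points) with the class mean ± SD (bars), on linear axes that start at 0 except for Eif2s3y. Rpl22, Eef1a1 and Eef2 step down from ROS+ to ROS+++, Rpl22l1, Eif4e3 and Eif1 are highest in ROS+++, and Eif2s3y is near 0 in 1 library of each class.

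Other genes of the pathway were taken from lists of textbook members and are given for ROS+++ against ROS+ with library totals. Of 47 ribosome biogenesis genes, 32 were lower and 1 higher, with a median of -0.87. Wdr12, of the complex that matures the large subunit, had the largest fall (-2.58), followed by Nob1, the nuclease that finishes the small-subunit RNA (-1.68). The gene that rose was Sbds, which acts late on the large subunit (1.14). Of 22 cytosolic tRNA synthetase genes, 20 were lower and none higher, with a median of -0.88, led by Yars (-1.60) and Kars (-1.34). Of 9 genes that make hypusine on eIF5A or diphthamide on eEF2, 6 were lower and none higher, with Dph2 (-3.02) and Dph1 (-1.43), partners in diphthamide synthesis, falling most. These stand beside 40.0% of all genes called lower and an all-gene median of -0.44. With relative log expression the 3 lists had 17, 8 and 2 genes called lower and medians of -0.45, -0.45 and -0.29, where 25.9% of all genes were called lower.

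Ribosome rescue and translational control were mixed. In the list of 16 poly(A)-binding, termination and rescue genes, 10 were lower and 1 higher with totals, and 3 lower and 4 higher with relative log expression. Of all genes tested, 40.0% were called lower and 19.2% higher with totals, and 25.9% and 26.6% with relative log expression. The gene that rose with totals was Pelo, which frees stalled ribosomes, from 2.51 to 16.2 and 63.0 CPM over the 3 classes (4.22 ± 0.35, limma, adjusted p = 1.27e-08), whereas Hbs1l, which encodes its GTPase partner, fell (-1.60), as did Gspt2, a termination GTPase (-1.47). Of 31 mTORC1 and translational control genes, 12 were lower and 5 higher with totals, and 8 lower and 9 higher with relative log expression, so the list's share of lower calls was near that of all genes. In it Ddit4l, an inhibitor of mTORC1, rose most (7.66), followed by Castor1, an arginine sensor that holds mTORC1 back (3.58), while the Castor1 paralogue Castor2 (-2.79) and Rragb, a GTPase that recruits mTORC1 to the lysosome (-2.21), had the largest falls. Of 18 integrated stress response genes downstream of eIF2, 8 were higher and 4 lower with totals, with Nupr1 (7.02) and Atf3 (5.78) the largest rises and Vldlr (-3.25) and Asns (-2.42) the largest falls. Atf3 is also in the immediate early list. Among ribosomal protein genes that the symbol rule does not cover, Rack1 (-1.08) and Rpsa (-0.94) were lower, and Fau did not pass the test.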

How the data were processed

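A single table, deposited by the authors, gives log2 values of 15119 genes in 14 libraries. Per the submitters' processing notes STAR, edgeR and genome build mm10 were used; tool roles, versions, counter and annotation were not given in the sources used here. As far as the values themselves tell, each is the log2 of reads per library total plus a prior: libraries share a lowest value of -4.36, and reads came back as whole numbers within 0.001 for 100% of values. Per the labels' protocols, cDNA was primed on poly(A), amplified over 12 cycles and sheared, with no strand or molecular identifier described.

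Reads were recovered and scaled to CPM by library totals. Genes needed 1 CPM in 4 libraries, which kept 15102. Because the deposited unit is log2, log2(CPM + 1) of all 14 libraries entered 1 limma-trend model with robust moderation (limma 3.58.1, statmod 1.5.0, R 4.3.3; 11 residual degrees of freedom), adjusted by Benjamini-Hochberg over all genes and tested on simulated data; no count model was run. Scalings were library totals, TMM, relative log expression and the upper quartile. Symbols and coordinates came from GENCODE M21. Levels per kilobase used merged exon lengths. Replicates are numbered in series order. The 26 replicate pairs within classes differed beyond counting error (chi-square per degree of freedom 33.7 to 161).

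Named genes were drawn from the 6 largest called rises and falls per comparison, taken separately for ribosomal proteins and factors, the 2 largest called changes per direction of each list, and a set of textbook members; Rpl41, Rpl24, Rpl36, Rpl4, Eif3l and Eif2b1 were otherwise picked with their values known. The members and lists were chosen with earlier results of these data known. Alternatives were the scalings, totals without member reads, pseudocounts of 0.1 and 5, the deposited log2 values, filters, voom, non-robust moderation, 2 classes alone, a library-number block, each library left out and, added after seeing the data, 3 libraries left out.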

Additional observations from a re-analysis of the deposited data

Results flagged for a closer look

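In 207 groups of 4 or 5 libraries checked for a library far from the rest of its class by Dixon's criterion, 8 were picked out, and chance alone picks out about 1 in 20. The ribosomal protein share of reads was 2.88% in ROS+ replicate 5 and 2.55% to 2.64% in the other ROS+ libraries. Rps26 had 376 CPM in the same library and 328 to 340 CPM in the others. Rpl12 had 148 CPM in ROS++ replicate 2 (others 123 to 130 CPM) and Rps24 had 134 CPM in ROS+++ replicate 2 (others 93.7 to 96.4 CPM). Eif1 had 130 CPM in ROS++ replicate 2, where the others had 640 to 751 CPM, and 886 CPM in ROS+++ replicate 1, where the others had 1260 to 1310 CPM. Eif4e3 had 35.3 CPM in ROS++ replicate 4, where the others had 12.3 to 17.7 CPM. Eif4ebp2 had 7.21 CPM in ROS++ replicate 3, where the others had 2.30 to 2.95 CPM.

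The 38 listed pseudogenes of these genes, which entered no comparison, had a share of reads of 0.0209% to 0.0257% (ROS+), 0.0186% to 0.023% (ROS++) and 0.0226% to 0.0278% (ROS+++). Per 100 reads of ribosomal proteins they had 0.792 to 0.893, 0.85 to 1.07 and 1.33 to 1.82 reads, with every ROS+++ library above all others. The reads of a gene and its near-identical copies cannot be told apart here.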

How the results depend on the processing

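With TMM, ROS+++ against ROS+ gave 5 ribosomal proteins called higher and 43 lower, 13 translation factors (initiation and elongation together) higher and 21 lower, and medians of -0.28 for ribosomal proteins, 0.03 for initiation factors and -0.61 for elongation factors; Rps27 (0.33), Rpl41 (0.36), Rplp2 (0.02), Eif4a2 (0.06) and Eif1a (0.07) were among those that changed sign. With relative log expression the counts were 5, 34, 13 and 19, the medians -0.22, 0.09 and -0.55, and Rps27 (0.39), Rpl41 (0.42), Rplp2 (0.08), Eif4a1 (0.01), Eif4a2 (0.12), Rpl36 (0.04), Eif1a (0.13), Eif5a (0.11) and Eif2b4 (0.37) were among those that did. With the upper quartile 4 ribosomal proteins were called higher, 11 factors higher and 22 lower, the medians were -0.37, -0.05 and -0.70, and Rpl41 was at 0.28.

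In ROS+++ against ROS++, TMM gave 4 and 21 ribosomal proteins and 9 and 6 factors, medians of -0.18, 0.03 and -0.14, and Rpl41 at 0.27 and Rplp2 at 0.03. Relative log expression gave 4 and 9, 10 and 5, medians of -0.09, 0.11 and -0.06, and Rpl41 at 0.36, Rplp2 at 0.11, Eef1d at 0.02, Eef2 at 0.07 and Eif4e at 0.08. The upper quartile gave 3 and 27, 7 and 11, and medians of -0.23, -0.02 and -0.19.

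A pseudocount of 5 CPM put ribosomal proteins -0.35 and initiation factors -0.03 from the all-gene median, and elongation factors at a median of -0.81, in ROS+++ against ROS+, and ribosomal proteins -0.26 from it against ROS++. A filter of 10 CPM gave an initiation factor median of -0.43. With only the classes compared, 0 ribosomal proteins and 1 factor were called higher in ROS+++ than in ROS++. Without the 3 libraries low in Y-linked reads, chosen after seeing the data, 0 ribosomal proteins were called higher in ROS++ than in ROS+ and 2 factors higher in ROS+++ than in ROS++. The cause of these shifts was not tested.

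The library-number sets as a replicate block gave 25, 69 and 65 ribosomal proteins called lower in ROS++ against ROS+, ROS+++ against ROS+ and ROS+++ against ROS++. It added calls from ROS+ to ROS+++ for Eif2s3y (-0.75, adjusted p = 0.0026), Eif1 (1.09, adjusted p = 0.0126), Eif5a (-0.32, adjusted p = 0.0424) and Eef1d (0.35, adjusted p = 0.0496), and from ROS++ to ROS+++ for Eif2s3y (-0.52), Eif3h (-0.48) and Eif1a (0.39), where it lost that of Eif4ebp2 (1.05, adjusted p = 0.0504). Deviations of same-set libraries correlated at -0.0222 to 0.231 (median 0.0842) and those of different sets at -0.15 to 0.161 (median -0.00889). Since the labels name no shared animal, the numbers were not taken as pairs in the main fit. All libraries of 1 set were near 0 in Y-linked reads, and those of the other sets were not. Whether the libraries of a set share an animal was not tested.

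Leaving out 1 library at a time, the counts of ribosomal proteins called higher ranged over 0 to 1, 1 to 1 and 0 to 1 in ROS++ against ROS+, ROS+++ against ROS+ and ROS+++ against ROS++, and those called lower over 16 to 25, 68 to 71 and 62 to 66. Factors called higher numbered 2 to 4, 4 to 7 and 1 to 4, and lower 12 to 18, 31 to 35 and 19 to 26. The elongation factor median was -0.39 to -0.24, -1.03 to -0.96 and -0.62 to -0.43, and relative to all genes -0.36 to -0.21, -0.60 to -0.52 and -0.28 to -0.08. Depth limits genes of few reads: Eif4ebp1, Eif4ebp2 and Eef1a2 stood under 20 CPM.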
